A study of Mus musculus with 6 samples.

Results

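Ventricular gene expression of calorically restricted (CR) male C57BL/6J mice was compared between 22 and 15 months of age, on the 2 of the series' 6 arrays that carry these groups. The probes used were those of mouse transcripts whose spots the scanner software placed well above background on each of these arrays, which gave 20016 genes or identifiers of the 32446 on the array. Of these, 14181 have a gene symbol. Values are log2 of the processed spot intensity minus the array's 75th percentile, so that a signal of 1 is the 75th percentile of that array, and differences are old CR minus middle-aged CR. A gene was counted as changed, and is said to have risen or fallen, at a difference of at least 2-fold (1 on the log2 scale).

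The middle-aged CR group was placed on restriction at 12 months of age and the old CR group at 19 months, each for 3 months, with the ration lowered in steps to 60% of ad libitum (AL) intake. Their counterparts of 15 and 22 months were housed in the same way and fed AL. All 4 groups were individually caged mice of 1 strain and sex, and the labels give no allele or agent beyond diet. For each group the ventricular tissue of its mice was pooled and the RNA of that pool was put on 1 array, so no difference has a replicate check and no test was possible. The error given with a gene is the spot error, estimated from replicate spots within the arrays, which leaves out the spread between mice, pools and hybridisations. The arrays of 15 months came from 1 slide scan and those of 22 months from another, so that age and slide scan cannot be told apart in either diet.

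In fasting the heart draws more on fatty acids and ketone bodies, and genes controlled by PPAR alpha, glucocorticoids and FOXO factors are known to respond to it. AMPK, the energy sensor, and the FOXO factors, which are held back by insulin signalling, are the pathways the study itself followed. Ageing of the ventricle is known for deposition of collagen and for a return of fetal genes such as the natriuretic peptides. Heart tissue also responds within minutes to handling, through the immediate early genes, and many of its transcripts follow the daily clock.

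On the middle-aged CR array 61.6% of 39415 probes were well above background and on the old CR array 69.5%, and no spot was saturated. The AL arrays had 77.1% at 15 months and 71.3% at 22 months. All 10 ventricular cardiomyocyte markers, among them Myh6, Myl2 and Tnnt2, were well above background on both CR arrays, and their median difference was -0.05, which was -0.17 with median scaling and 0.004 with the median of all genes subtracted. Of 10 skeletal muscle markers 5 were measured on both, with a median of -0.29. Of these, 4 were below 0, while Pvalb rose by 1.61. Myh4 and Myh2 were above background on the old CR array only, at least 4.76-fold and at least 1.13-fold higher. Platelet markers stood apart on the middle-aged AL array, where the signals of the 8 measured markers summed to 163, against 6.10 and 6.56 on the middle-aged and old CR arrays and 5.26 on the old AL array. Spermatid markers summed to 24.0 on the old AL array and to 9.15 on the middle-aged AL array, against 5.57 and 6.21 on the CR arrays. The 6 measured erythroid markers also had their highest sum on the middle-aged AL array, with 189 against 47.2 on the old AL array, and 3 of them fell under AL. On the middle-aged and old CR arrays they summed to 72.9 and 64.0. The platelet and spermatid lists did not separate the 2 CR arrays. The part of platelet, spermatid and erythroid content in the AL values given here was not tested. In bulk tissue, fewer cells of a type and less RNA per cell cannot be told apart.

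At 22 months of age 1075 genes were at least 2-fold higher than at 15 months under CR (5.37% of 20016) and 479 were at least 2-fold lower (2.39%). Of these 1554 genes, 1482 differed by more than 3 spot errors. The median difference of all genes was -0.06 with an SD of 0.63. Of all genes, 45.3% were above 0 and most were below it. When the arrays were scaled to their medians instead, the median became -0.18 and the counts became 862 higher and 753 lower, so the surplus of rises over falls rests partly on the scaling. The median spot error of a gene was 0.16. Among 3274 genes with several probes, 394 had probes that differed from each other by 2-fold or more.

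The same ages under AL gave 1199 genes higher (5.22% of 22980) and 953 lower (4.15%). This comparison shares no array with the one under CR but spans the same pair of slide scans. Across the 19924 genes measured in both, the differences under CR and AL had a Pearson's r of 0.557 and a Spearman's rho of 0.576, given as a description, since genes are not independent replicates and the slide scans are common to both. Rises were shared more than falls. Of these genes, 1075 rose under CR and 920 under AL, and 423 did so under both, which is 39.3% of the former and 46.0% of the latter. Falls numbered 466 under CR and 873 under AL, with 118 under both, which is 25.3% and 13.5%. In opposite directions, 15 genes rose under CR and fell under AL, and 11 did the reverse.

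**Figure D1:**
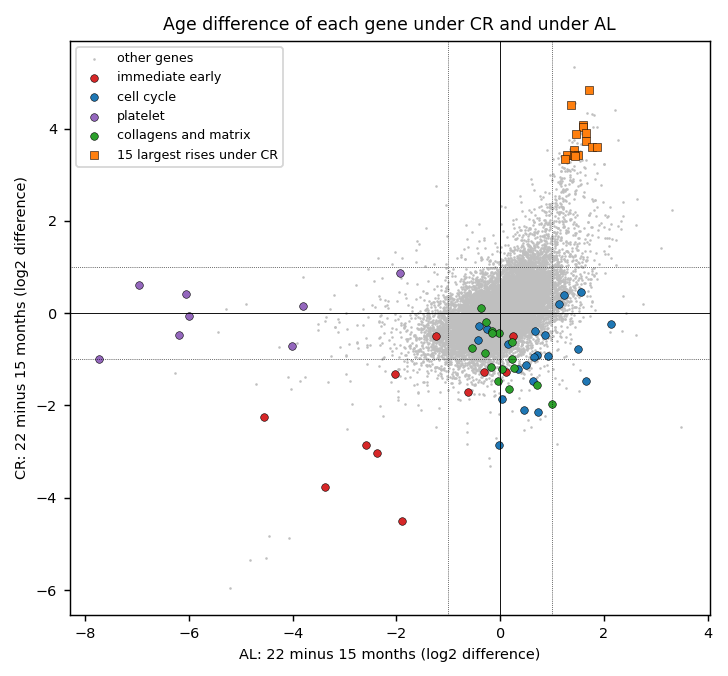
Each point is 1 gene, with the log2 difference of 22 minus 15 months under AL on the x axis and under CR on the y axis; dotted lines mark 2-fold and colours mark 4 gene lists and the 15 largest rises under CR. Immediate early genes lie at the lower left, cell cycle genes mostly at the lower right, platelet markers far to the left and near 0 under CR, and the 15 largest rises in 1 cluster at the upper right.

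Immediate early genes, which are transcribed within minutes of a stimulus without new protein synthesis, were the list furthest below the other genes. All 11 measured members were lower at 22 months, 9 of them by 2-fold or more, with a median of -1.71 beside -0.06 for all genes. Atf3, a stress-induced transcription factor, had a signal of 4.52 at 15 months and 0.199 at 22 months under CR, a difference of -4.51 with a spot error of 0.23. Egr1, an early growth response factor, had 10.2 and 0.754, a difference of -3.76. Both were far above the old CR array's value on the younger one. Nr4a1, an orphan nuclear receptor, went from 19.8 to 2.43 and differed by -3.02. The antiproliferative gene Btg2 went from 4.00 to 0.553 and differed by -2.86, and Fos, a subunit of AP-1, from 0.971 to 0.205, which is -2.25. Jun, the partner of Fos, differed by -1.71 and the phosphatase Dusp1 by -1.32, and Klf4 and Egr2 each by -1.27. Junb and Ier2 were well above background on the middle-aged CR array but not on the old one, where they were at least 3.80-fold and at least 3.66-fold lower.

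Most of these genes were lower at 22 months under AL as well. There 13 members were measured, a larger set than the 11 under CR, with a median of -1.90 and 9 at least 2-fold lower. Under AL, Jun at -0.62 and Klf4 at -0.30 stayed within 2-fold, and Egr2 at 0.10 and Egr3 at 0.24 were above 0. Under AL, Egr1 differed by -3.38, Nr4a1 by -2.37, Btg2 by -2.58 and Fos by -4.55. Within the slide scan of 15 months the list's median for CR minus AL was -0.08, and within that of 22 months it was -0.48. At 15 months Atf3 and Jun were higher under CR than under AL, with 4.52 against 1.04 for Atf3 and a difference of 1.08 for Jun, and Fos was lower, with 0.971 against 5.41.

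The sequences before the starts of Atf3, Nr4a1, Btg2 and Fos are shown because these members fell furthest among those of the list with a window in the RefSeq promoter table (build GRCm38.p6). Each is the 250 bases before the gene's start, read in the direction of the gene, with every TGACG in capitals on either strand (CGTCA on the other). TGACG is the core of the cAMP response element, and a core on each strand overlapping the other makes the full element TGACGTCA, as in Btg2.
Atf3, chr1:191183334-191183583, reverse strand: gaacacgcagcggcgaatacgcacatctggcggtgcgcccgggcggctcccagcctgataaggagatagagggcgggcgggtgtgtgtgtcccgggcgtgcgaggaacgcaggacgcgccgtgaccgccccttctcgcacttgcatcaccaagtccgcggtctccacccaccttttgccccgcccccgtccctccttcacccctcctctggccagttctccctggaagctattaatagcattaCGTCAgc
Nr4a1, chr15:101266596-101266845, forward strand: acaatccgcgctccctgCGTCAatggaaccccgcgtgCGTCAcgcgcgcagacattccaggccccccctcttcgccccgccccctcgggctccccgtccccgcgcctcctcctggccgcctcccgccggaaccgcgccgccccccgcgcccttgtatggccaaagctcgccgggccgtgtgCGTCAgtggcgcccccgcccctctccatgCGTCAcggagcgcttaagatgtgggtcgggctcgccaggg
Btg2, chr1:134079156-134079405, reverse strand: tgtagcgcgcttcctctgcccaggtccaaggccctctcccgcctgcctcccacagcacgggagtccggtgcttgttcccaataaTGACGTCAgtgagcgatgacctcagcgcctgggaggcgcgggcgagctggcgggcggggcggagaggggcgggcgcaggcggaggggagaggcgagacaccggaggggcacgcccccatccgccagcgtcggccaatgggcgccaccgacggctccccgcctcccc
Fos, chr12:85473640-85473889, forward strand: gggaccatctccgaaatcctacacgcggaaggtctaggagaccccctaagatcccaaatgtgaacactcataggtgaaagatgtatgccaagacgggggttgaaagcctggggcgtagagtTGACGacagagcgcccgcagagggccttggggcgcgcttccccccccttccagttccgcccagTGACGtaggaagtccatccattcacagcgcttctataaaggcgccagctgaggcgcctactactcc

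Of the 9 measured immediate early genes with a window, 7 hold TGACG (77.8%), compared with 17.9% of all 27025 genes with a window, and the full element is in 2 of the 9 and in 1.62% of all. Nr4a1 has 4 cores and Atf3 has 1, whose last base lies 3 bases before the start. A match is a run of letters and not a measured binding site.

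Glucocorticoid-responsive genes were lower as a group. All 10 measured members were below 0, 7 of them by 2-fold or more, with a median of -1.09 against -0.69 under AL. The 7 include Dusp1, counted above, and Pdk4 and Mt2, described next. Sgk1, a kinase that regulates ion transport, had a signal of 15.3 at 15 months and 3.58 at 22 months, a difference of -2.10, and under AL it differed by -1.52. Fkbp5, a chaperone of the glucocorticoid receptor, differed by -1.07, Klf9 by -1.07 and Cebpd by -1.11. Under AL the differences were -0.56 for Fkbp5, -0.97 for Klf9 and -0.76 for Cebpd.

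Metallothioneins, small metal-binding proteins, did not follow that course under AL. Mt2 had a signal of 146 on the middle-aged CR array and 30.9 on the old one, a difference of -2.23 with a spot error of 0.14, whereas its signals under AL were 39.4 and 71.8. Mt1 had 259 and 122 under CR, a difference of -1.09, and 104 and 134 under AL. The middle-aged CR array held the highest value of both genes. Irs2, an adaptor of the insulin receptor, had signals of 3.46 and 3.42 on the AL arrays and of 20.3 and 4.47 on the CR arrays, so its difference of -2.18 under CR stood beside -0.02 under AL.

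Genes of the fasting and PPAR response were lower at 22 months in 12 of 13 cases, and 6 of them fell. The list's median was -0.94, against -0.45 under AL. Pdk4, the kinase that shuts down pyruvate oxidation, had a signal of 74.4 in middle-aged CR mice and 20.9 in old CR mice, a difference of -1.83. Its AL signals were 21.6 and 22.8, close to the old CR value. Angptl4, an inhibitor of lipoprotein lipase, had 14.4 and 5.29 under CR, a difference of -1.44, and 4.06 and 9.26 under AL, the opposite direction. Acot1, a thioesterase of long-chain acyl-CoA, went from 9.37 to 3.35, and the lipid droplet protein Plin2 from 3.36 to 1.24, differences of -1.48 and -1.44. Acot2 and Plin5 were the other members that fell. The receptors themselves showed little difference, with 0.03 for Ppara and -0.07 for Ppard. Within the slide scan of 15 months the list was above AL by a median of 0.66, and within that of 22 months by 0.30. Of 8 white adipocyte markers 4 were measured, and their summed signal was 266 at 15 months and 109 at 22 months under CR. Almost all of it came from Fabp4, which capillary endothelium also expresses and which differed by -1.29. The other 3 were higher at 22 months, with Cfd at 1.33, Retn at 0.51 and Car3 at 0.42, and the list's median was 0.47. Adipoq and Plin1 were above background on the old CR array only. Plin1 was at least 1.27-fold higher there, while the bound for Adipoq, 0.940-fold, gives no direction. The part of fat cells in these genes was not tested.

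The genes of fatty acid uptake and oxidation were lower in 18 of 19 cases, but none by 2-fold, with a median of -0.38 under CR and -0.61 under AL. Cd36, the fatty acid translocase, differed most, by -0.96. Subunits of complex I had a median of -0.19, complexes II and III -0.35, complexes IV and V -0.25 and the citric acid cycle -0.28, and no member of these 4 lists differed by 2-fold. The median of all genes, -0.06, was -0.15 when only genes with a signal of at least 100 on both arrays were kept. Mitochondrial biogenesis and dynamics had a median of 0.03, which became -0.09 with median scaling and -0.03 with quantile normalisation. In that list Ppargc1b, a coactivator of mitochondrial genes, was highest at 0.89. Glycolysis and glucose uptake had a median of -0.23 and ketone and branched-chain amino acid use -0.38, again with no member past 2-fold.

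Collagens and other matrix genes were lower in 15 of 16 cases and 7 fell, with a median of -0.92 under CR, whereas no member fell under AL and the AL median was -0.10. Col3a1, a fibrillar collagen, had a signal of 25.4 at 15 months and 6.54 at 22 months under CR, a difference of -1.96 with a spot error of 0.14. Under AL its signals were 12.0 and 24.0, a difference of 0.995, higher at 22 months but just short of the limit for a rise. Col1a1, the main fibrillar collagen of the heart, had 28.8 and 9.86 under CR and 16.1 and 26.4 under AL. Periostin (Postn), a matrix protein of activated fibroblasts, differed by -1.64 and fibronectin (Fn1) by -1.47 under CR, and under AL by 0.17 and -0.05. The other members that fell were Col1a2, Sparc and Lum, and Lox, the collagen cross-linking enzyme, was above background on the middle-aged CR array only and at least 2.26-fold lower on the old one. Of the 16 genes, 14 had a lower age difference under CR than under AL.

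Regulators of the matrix were lower as well, in 12 of 13 cases with 5 falls and a median of -0.77. Thbs1, a matricellular protein that platelets also carry, had signals of 0.704 at 15 months and 0.124 at 22 months under CR, a difference of -2.51. Its AL signals were 9.87 and 1.28, and the middle-aged AL array is the one with high platelet markers. Ccn2, Timp3 and Mmp2 differed by -1.18, -1.11 and -1.04, and under AL by -0.55, -0.98 and -1.48. Timp1, an inhibitor of matrix proteases, was at -0.003 under CR and at 2.42 under AL. By RT-qPCR the study reports higher Col3a1, Mmp2 and Tgfb1 mRNA in old mice. It also reports lower expression of fibrosis genes with CR in middle-aged and old mice. On these arrays Mmp2, as given, and Tgfb1, at -1.44, were lower at 22 months under AL. Col3a1 went the way of the RT-qPCR at 22 months, but at 15 months it was higher with CR than with AL.

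Markers of the cells of the heart other than muscle were mostly lower beside these genes. All 10 fibroblast markers were below 0, 4 of them by 2-fold, with a median of -0.85, and their summed signal was 284 at 15 months and 185 at 22 months under CR. Of the 4 that fell, Col1a1, Col1a2 and Lum are matrix genes already counted, and the remaining one was Vim at -1.26. Pdgfra, a marker of resting fibroblasts, differed by -0.18. Endothelial markers had a median of -0.50 and 1 of 10 fell, with a summed signal of 137 and 77.6. That gene was Cldn5, a tight junction protein, with a signal of 11.1 at 15 months and 2.01 at 22 months, and 1.97 and 2.97 under AL. Markers of smooth muscle and pericytes had a median of -0.78 with 1 fall of 9, Cnn1 at -1.05, and macrophage markers -0.45 with none of 7. The part of cell content in the matrix genes was not tested.

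**Figure D2:**
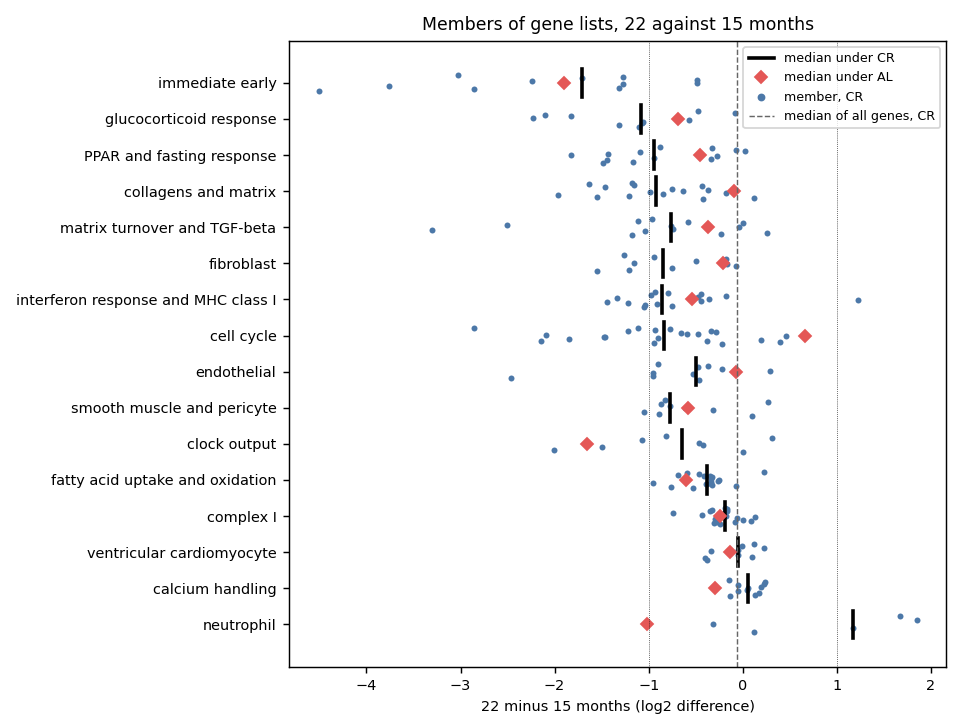
Rows are gene lists, blue points their measured members by log2 difference of 22 minus 15 months under CR (members spread vertically only for view), black bars the CR medians, red diamonds the AL medians, the dashed line the median of all genes under CR and dotted lines 2-fold. Immediate early genes have medians of -1.71 and -1.90 under CR and AL, while cell cycle and neutrophil lists have medians on opposite sides of 0.

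Cell cycle genes were lower at 22 months under CR and higher under AL. Under CR 19 of 22 measured members were below 0 and 8 fell, with a median of -0.84. Under AL the median was 0.66, with 6 members at least 2-fold higher and none lower, and 21 of the 22 members had a lower age difference under CR. Prc1, which bundles the microtubules of the central spindle, had signals of 0.122, 1.07, 0.121 and 0.148 on the middle-aged AL, middle-aged CR, old AL and old CR arrays, so that its difference of -2.86 under CR came with 3.13 for CR minus AL at 15 months. Ccna2, the cyclin of S phase and G2, had 0.175, 0.830, 0.289 and 0.187 in the same order. For both genes the middle-aged CR array alone was high. The mitotic cyclin Ccnb2 differed by -1.85, the kinetochore motor Cenpe by -2.09 and Mki67, the classic proliferation marker, by -1.22, and in each of them the middle-aged CR array was the highest of the 4. Anln and Rrm2, which act in cytokinesis and in nucleotide supply, are outside the list but among the 15 largest falls, at -2.83 and -2.58. The falls were not uniform, since Cdk1, the mitotic kinase, was at 0.46, Bub1 at 0.39 and Ccnb1 at 0.19.

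Promoters of cell cycle genes are known for CCAAT boxes near the start and for the cell cycle homology region (CHR), TTTGAA. Of 20 measured members with a window, 18 hold CCAAT on either strand in the 250 bases before the start (90.0%, against 34.5% of all genes) and 6 hold TTTGAA, found in 16.3% of all. Ccnb2 and Prc1 are shown as members that fell, with CCAAT and TTTGAA in capitals. Ccnb2 has 3 CCAAT and 1 TTTGAA, and Prc1 has 1 CCAAT.
Ccnb2, chr9:70421555-70421804, reverse strand: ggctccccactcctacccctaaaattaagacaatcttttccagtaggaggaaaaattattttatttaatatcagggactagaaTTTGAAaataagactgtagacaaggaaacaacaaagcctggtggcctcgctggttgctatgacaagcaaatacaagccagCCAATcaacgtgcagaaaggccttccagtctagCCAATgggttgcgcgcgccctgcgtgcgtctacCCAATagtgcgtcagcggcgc
Prc1, chr7:80294201-80294450, forward strand: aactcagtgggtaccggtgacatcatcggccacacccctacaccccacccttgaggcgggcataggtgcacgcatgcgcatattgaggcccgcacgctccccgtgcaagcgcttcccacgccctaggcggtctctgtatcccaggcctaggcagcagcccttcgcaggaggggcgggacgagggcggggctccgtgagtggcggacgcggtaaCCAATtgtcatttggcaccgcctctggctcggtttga

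Genes driven by the clock were lower at 22 months under both diets. Of 8 measured clock output genes 7 were lower under CR and 3 fell, with a median of -0.64, against -1.66 under AL. Dbp, a PAR bZIP factor with a strong daily rhythm, had signals of 17.1 and 1.71 on the AL arrays and 7.11 and 2.52 on the CR arrays, differences of -3.32 and -1.50. Ciart, a repressor of the clock, had 2.33 and 0.469 under AL and 1.82 and 0.452 under CR. Per1 differed by -1.07 under CR, whereas Per2 was at 0.31. Nr1d1, a nuclear receptor that represses Arntl, was above background on the middle-aged CR array only and at least 2.19-fold lower on the old one, and Per3 on the old one only, at least 1.33-fold higher. Of the activators, Arntl was at 0.49 and Clock at -0.15 under CR, and of the repressors, Cry1 was at 0.81 and Nfil3 at 0.22. Under AL these 4 genes were at 1.70, 0.63, 0.61 and 0.57. The hour of sampling of each pool was not given in the sources used here.

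The promoter of Ciart is shown because it carries 3 copies of the E-box CACGTG, the element bound by CLOCK and BMAL1, set in capitals. CACGTG is in 4 of 7 clock output windows (57.1%) and in 6.05% of all.
Ciart, chr3:95882229-95882478, reverse strand: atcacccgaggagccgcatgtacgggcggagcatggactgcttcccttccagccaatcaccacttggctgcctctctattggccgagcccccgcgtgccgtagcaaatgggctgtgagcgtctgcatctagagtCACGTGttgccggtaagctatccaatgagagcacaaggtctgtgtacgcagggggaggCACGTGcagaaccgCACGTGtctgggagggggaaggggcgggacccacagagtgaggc

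Interferon-response and MHC class I genes were lower in 15 of 16 cases, with 5 falls and a median of -0.86, beside -0.54 under AL. Ifit3 and Oasl2, both induced by interferon, had signals of 2.65 and 2.88 at 15 months and 0.975 and 1.14 at 22 months, differences of -1.44 and -1.34. Ifit2, of the same kind as Ifit3, differed by -1.22. B2m, the light chain of MHC class I, differed by -1.05 and H2-K1, a heavy chain, by -1.04, and under AL these genes differed by -1.80 and -0.54. Irf7, the factor that amplifies interferon signalling, was above background on the middle-aged CR array only and at least 2.84-fold lower on the old one. Isg15 was the exception at 1.22, but its 2 probes disagreed, with -0.83 and 3.27, so no direction is given for it. Complement genes had a median of -0.49 with 2 falls of 11, and under AL a median of -0.67.

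Of the study's 6 inflammation markers 4 were measured and none of these reached 2-fold, while Il6 and Tnf were above background on neither CR array. Ccl2, a chemokine that draws monocytes, differed by -0.68 under CR and 0.61 under AL, and Il1b by -0.41 and 0.91. Adgre1, the macrophage antigen F4/80, was at -0.35 and Il10 at 0.37 under CR.

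Neutrophil and lymphocyte markers were mostly higher under CR. Of 12 markers of B, plasma and T cells 5 were measured and 4 were above 0, with a median of 0.28, which was -0.32 without the filter on dim probes. Cd3e, a chain of the T cell receptor complex, rose by 1.56 and was at 0.60 under AL, and Cd4 was at 0.50. Of 8 neutrophil markers 5 were measured and 3 rose, with a median of 1.17 under CR and -1.02 under AL. S100a8, 1 chain of calprotectin, had signals of 0.525, 0.134, 0.194 and 0.482 on the middle-aged AL, middle-aged CR, old AL and old CR arrays. S100a9, the other chain, had 2.47, 0.942, 1.22 and 3.00. In both genes the middle-aged CR array was the lowest, and the differences were 1.85 and 1.67 under CR and -1.43 and -1.02 under AL. The middle-aged AL array, which enters the AL differences, is the one with high platelet and erythroid markers. Elane, neutrophil elastase, rose by 1.17 under CR and 1.23 under AL, while Mpo was at -0.31 and Camp at 0.11. The summed signal of the 5 markers was 6.57 and 15.6 under CR and 9.35 and 15.7 under AL, with Elane the largest part of it, and Ly6g, Ltf and Ngp were above background on neither CR array. The part of neutrophil content in other immune genes was not tested.

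The largest rises formed a group of their own. The 15 genes of known symbol that rose most differed by 3.35 to 4.84, from 10.2-fold to 28.6-fold. Among them were Kcnk2, a potassium channel of the TREK type, Vtcn1, an inhibitory ligand of T cells, Tdo2, a tryptophan dioxygenase of the liver, Kap, an androgen-regulated protein of the kidney, Zan, a sperm protein that binds the egg coat, and the beta-defensins Defb7, Defb15 and Defb28. Most are known from tissues other than the heart. Kcnk2 had signals of 0.407, 0.125, 1.33 and 3.56 on the middle-aged AL, middle-aged CR, old AL and old CR arrays, Zan had 0.384, 0.151, 1.16 and 2.56, and Defb28 had 5.65, 2.10, 15.5 and 30.8. These 3 genes, like the other 12, had the lowest value on the middle-aged CR array, then the middle-aged AL, the old AL and the old CR array.

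That order held in 15 of 15 of the largest rises, in 80.2% of the 248 genes at least 4-fold higher, in 55.3% of the 1075 at least 2-fold higher, and in 7.43% of all 19891 genes measured with the same probes on the 4 arrays. The choice of genes by a large difference between the CR arrays favours this order, since it tends to put the old CR array highest, as in 884 of the 1075, and the middle-aged CR array lowest, as in 802, with the AL arrays in between. Under AL the 15 genes rose by 1.24 to 1.87. For CR minus AL they differed by -1.84 to -0.44 at 15 months and by 0.27 to 1.42 at 22 months. Among the 10 E1A control probes, which match RNA added in the laboratory and no mouse gene, 1 was above background on all 4 arrays. Its median over 32 spots was 0.65 on the middle-aged AL, 1.14 on the middle-aged CR, 1.56 on the old AL and 2.93 on the old CR array on the log2 scale, a difference of 1.79 under CR and 0.92 under AL. Other controls with most of their spots above background on every array differed under CR by -0.99 to 0.41. The part of the E1A probe's difference in the rises was not tested.

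**Figure D3:**
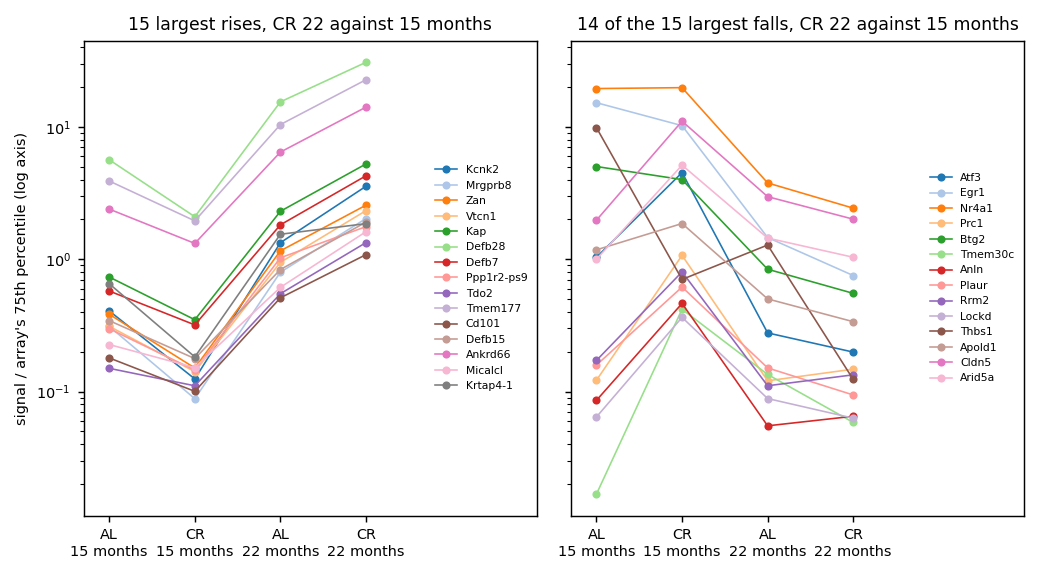
Signal of the 15 genes that rose most (left) and of 14 of the 15 that fell most (right) on the 4 arrays, as multiples of each array's 75th percentile on a log axis; lines join the values of 1 gene and there is 1 array a group. The rises share the order middle-aged CR, middle-aged AL, old AL, old CR, and the falls have no common order.

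Among the falls no such common order was seen. Of 463 genes at least 2-fold lower and measured with the same probes on the 4 arrays, 381 were highest on the middle-aged CR array and 75 on the middle-aged AL array, compared with 6941 and 3659 of all 19891 genes. The old CR array was lowest for 249 of them and the old AL array for 168. The middle-aged CR array enters the choice of these genes. Of the 463 genes, 124 were at least 2-fold higher in CR than in AL mice at 15 months, and 24 were at least 2-fold lower in CR than in AL mice at 22 months. Arid5a, a regulator of mRNA stability in inflammation, was of the former kind, with 5.14 on the middle-aged CR array, 1.45 on the old AL and 1.04 on the old CR array, and 2.36 for CR minus AL at 15 months. Plaur, the urokinase receptor, and Lockd, a non-coding RNA next to Cdkn1b, had the same shape, with differences of -2.71 and -2.53 under CR. Apold1, an early response gene of endothelium, was lower at 22 months under both diets, by -2.46 under CR and -1.23 under AL. Tmem30c was also among the 15 largest falls at -2.84, but its probe was not above background on the middle-aged AL array, and without the filter on dim probes its difference was 0.094. The 5 largest falls of any identifier had no symbol here, with differences of -5.97 to -4.83 under CR and -5.20 to -4.08 under AL.

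Genes of the contractile apparatus mostly stayed within 2-fold. Thick filament genes had a median of -0.05, which was 0.005 with the median of all genes subtracted, thin filament genes -0.33, and the Z disc and titin list -0.56 with 9 of 12 members lower and none by 2-fold. In the thick filament Myh7b, a myosin heavy chain of slow muscle, rose from 22.9 to 49.7, a difference of 1.12, while Myh6, the main myosin of the adult mouse ventricle, was at -0.05. Xirp1 had the largest negative difference of the Z disc genes, at -0.94. All 11 calcium handling genes lay between -0.15 and 0.23, among them Ryr2 at 0.22 and Atp2a2 at -0.14, and all 11 had a higher age difference under CR than under AL. Their median was 0.05 under CR, which became -0.07 with median scaling, and -0.30 under AL. Of 14 ion channel and gap junction genes only Kcnd2, a channel of the transient outward current, reached 2-fold, at -1.26, the same value as under AL. With a spot error of 0.43 the difference under CR was within 3 spot errors of 0. Gja1, the ventricular connexin, was at 0.85 under CR and -0.30 under AL.

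The hypertrophy markers parted from each other. Nppa, the atrial natriuretic peptide, had a signal of 13.0 at 15 months and 30.6 at 22 months under CR, a rise of 1.24 with a spot error of 0.04, and 10.2 and 21.6 under AL, a rise of 1.08. Nppb, the B-type peptide, had 4.25 and 4.87 under CR, a difference of 0.20, and 1.09 and 7.33 under AL, a rise of 2.76. Myh7, the fetal myosin, was at 0.04 under CR and 1.22 under AL. Acta1, skeletal actin, and Ankrd1, a stress-induced repeat protein, were lower under CR by -0.85 and -0.59 and higher under AL by 0.95 and 0.88. Of these 5 genes, 4 thus had a lower age difference under CR than under AL. In all 5 the middle-aged CR array was above the middle-aged AL array, by a median of 1.40, while at 22 months the median for CR minus AL was 0.04. For Nppa, Nppb and Myh7 the study also measured mRNA by RT-qPCR. It reports no significant effect of CR on them in middle-aged mice and lower expression with CR in old mice. The array values differ from this in part. At 22 months Nppa was higher with CR than with AL, with 30.6 against 21.6, while Nppb was lower, with 4.87 against 7.33. At 15 months all of them were higher with CR on the arrays. Nppa is also an atrial marker, and Pam, which amidates peptides and is rich in atria, rose by 1.05, while Myl4, the atrial light chain, was at -0.14 and Myl7 was above background on the old CR array only, at least 1.16-fold higher.

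AMPK subunits stayed within 2-fold under both diets. Of the catalytic subunits, Prkaa1 was at -0.57 and Prkaa2, the main form in muscle, at -0.12, with signals of 1.14 and 1.04 on the CR arrays. The scaffold subunits were at 0.53 for Prkab1 and -0.47 for Prkab2. The regulatory gamma subunits were at -0.19 for Prkag1, 0.02 for Prkag2 and 0.70 for Prkag3. The list's median was -0.12 under CR, close to that of all genes, and -0.55 under AL.

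Among the FOXO factors, Foxo3 rose by 1.50 with a spot error of 0.33, from a signal of 0.0918 to 0.259, and under AL it was at 0.70. With the normexp background correction the difference under CR was 0.47. Foxo1 was at -0.20, Foxo6 at -0.50 and Foxo4 at -0.78, each within 3 spot errors of 0. None of the 17 measured FOXO targets that the study followed reached 2-fold, and their median was -0.33 under CR and -0.29 under AL. Bbc3, a proapoptotic BH3 protein, was lowest at -0.90. Of the targets that act in autophagy, Map1lc3b was at -0.90, Gabarapl1 at -0.89 and Map1lc3a at -0.82, whereas Bnip3 was at -0.28 and at 0.45 with its brightest probe. Targets that detoxify oxygen radicals were at -0.35 for Sod1, -0.25 for Sod2, -0.45 for Sod3 and 0.23 for Cat. The cell cycle inhibitors were at -0.72 for Cdkn2d, -0.49 for Cdkn1a, -0.33 for Cdkn1b and -0.05 for Cdkn2b. Bid, another BH3 protein, was at 0.53, Ccng2 at 0.27, Gadd45a at -0.16 and Tnfsf10, the death ligand TRAIL, at -0.01.

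**Figure D4:**
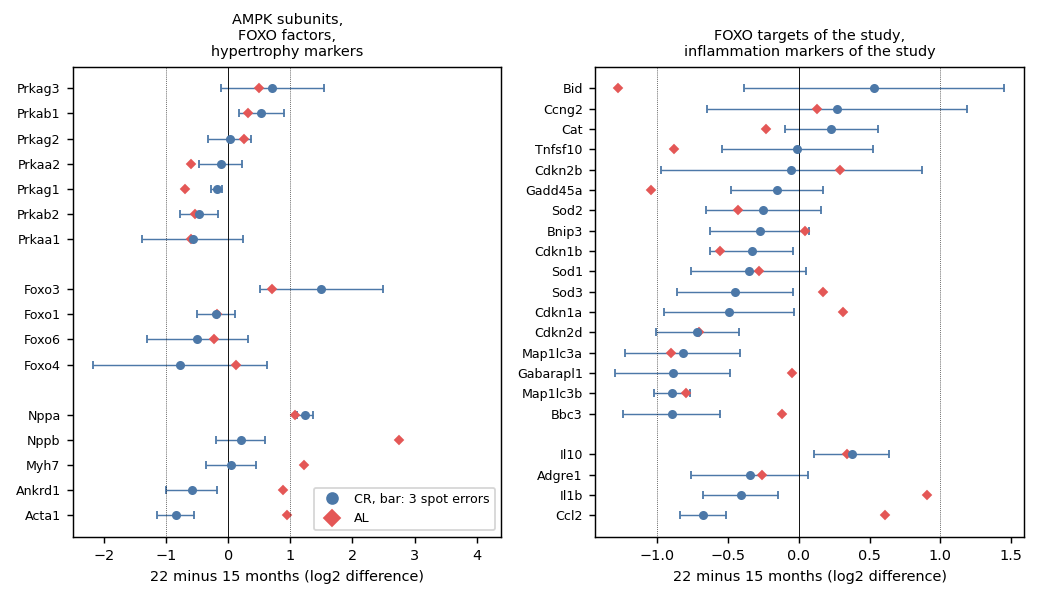
Log2 differences of 22 minus 15 months for the members of 5 lists built around genes the study followed, with blue points for CR (bars: 3 spot errors, within-array error only) and red diamonds for AL; dotted lines mark 2-fold. Acta1, Ankrd1 and Foxo6 were added here and are not among the genes that the study's text names. Under CR Nppa and Foxo3 lie past 2-fold, and Nppb, Myh7, Ankrd1 and Acta1 lie far below their AL values.

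Genes around these pathways were mostly within 2-fold. In insulin, IGF and mTOR signalling 2 of 21 members passed it, Irs2 as above and Sesn2, a stress-induced inhibitor of mTOR, which rose by 1.03 under CR and 1.20 under AL. Sirtuins and NAD genes had a median of -0.17, with Sirt2 lowest at -0.90. Autophagy and lysosome genes had a median of -0.29, and ubiquitin and proteasome genes -0.29, with 16 of 19 and 14 of 17 members below 0. The ubiquitin ligases of muscle atrophy, Fbxo32 and Trim63, were at -0.59 and -0.50. Senescence and telomere genes had a median of -0.31, and Cdkn2a, the senescence-associated inhibitor, was at -0.31 under CR and 0.53 under AL. Antioxidant genes were lower in 16 of 17 cases with a median of -0.49, and the metallothioneins were the members past 2-fold.

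Stress proteins and sterol genes held 3 single rises. Hspa1a, the inducible HSP70, went from 0.177 to 1.66, a difference of 3.23, and from 0.206 to 0.726 under AL. Of 13 heat shock genes 9 were below 0, as were most of all genes. The small heat shock proteins Hspb8 and Hspb6 were at -0.92 and -0.76. Lss, lanosterol synthase, went from 0.130 to 1.25, a difference of 3.27, while no other of the 11 measured sterol genes passed 2-fold. Hspa1a and Lss had the same order over the 4 arrays as the 15 largest rises. Sdf2l1, a chaperone of the endoplasmic reticulum, rose by 1.23, and apart from it and Atf3 the unfolded protein and amino acid response list stayed within 2-fold, with Atf4 at -0.10 and Hspa5 at 0.23.

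Further genes were above background on 1 CR array only, and for these a bound is given against the higher of the lowest signal well above background on the other array and the dim probe's own signal. On the old CR array alone were 2868 genes, 341 of them at least 2-fold higher, and on the middle-aged CR array alone 330 genes, 227 of them at least 2-fold lower at 22 months. The larger number on the old array goes with its larger share of probes above background. Krt6a, an epithelial keratin, was at least 47.1-fold higher, with measured log2 means of 1.70 and -5.22, Gpr135 at least 22.8-fold, Eppin, an epididymal protease inhibitor, at least 19.5-fold, Defa27 at least 17.4-fold and Cd209g at least 12.7-fold. In the other direction Serpina3n, an acute-phase protease inhibitor, was at least 5.66-fold lower, the DNA glycosylase Neil3 at least 5.45-fold, Rgr at least 5.42-fold, Kntc1, a kinetochore protein, at least 5.27-fold and Sdcbp2 at least 4.37-fold.

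The CR age difference minus the AL age difference, which equals CR minus AL at 22 months less CR minus AL at 15 months and so takes out what a slide scan adds equally to both its arrays, was at least 2-fold higher in 888 of 19920 genes (4.46%) and lower in 556 (2.79%). With median scaling these counts became 647 and 874, and with quantile normalisation 759 and 721, so which direction was more frequent depends on the scaling. By list, the median of this quantity was -1.59 for the cell cycle, -1.48 for the hypertrophy markers and -0.92 for collagens and matrix. It was 1.53 for neutrophil markers and 0.37 for calcium handling. It was 0.05 for complex I and 0.04 for fatty acid uptake and oxidation. The cell cycle list had a median of 0.49 for CR minus AL at 15 months and of -0.78 at 22 months, and the collagens 0.39 and -0.51. Platelet and spermatid lists had 5.84 and -1.37, the values of the AL arrays that stood apart. The erythroid list, also high on the middle-aged AL array, had 0.86.

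**Figure D5:**
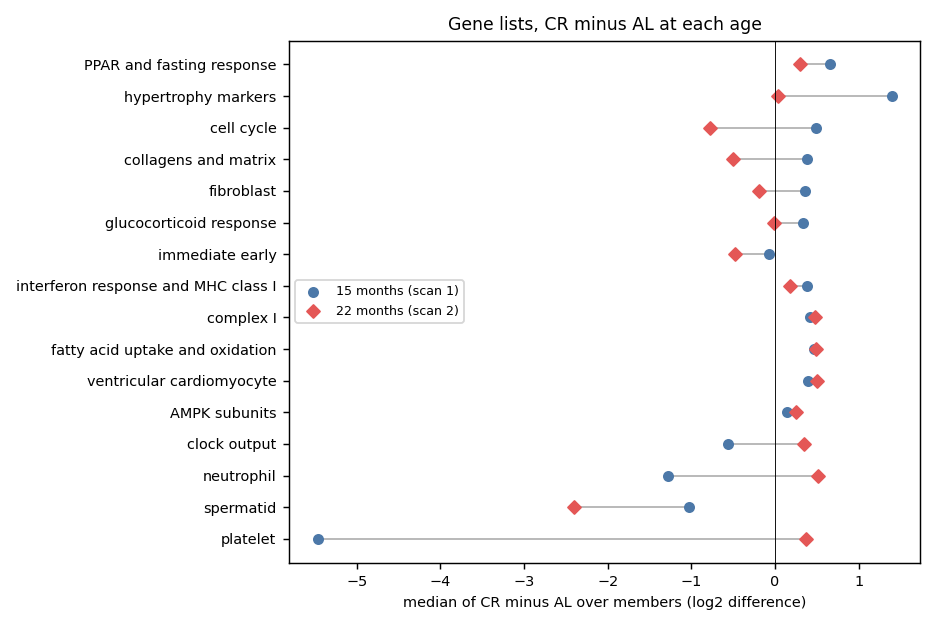
Medians over list members of CR minus AL at 15 months (blue circles) and at 22 months (red diamonds), each within 1 slide scan, on a log2 scale; the grey line joins the values of a list. Cell cycle and collagen lists lie above 0 at 15 months and below 0 at 22 months, complex I and ventricular cardiomyocyte lists lie at similar values at both ages, and platelet and spermatid lists show the AL arrays that stood apart.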

How the data were processed

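The authors pooled ventricular tissue by group, isolated RNA from the pool, labelled it with 1 dye and hybridised it to Agilent arrays. The deposited scanner files hold spot intensity, background-subtracted per the file headers by Agilent Feature Extraction 11.0.1.1, with no scaling between arrays. A deposited log2 table of the same arrays, with no normalization named in the sources used here, served as an alternative.

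Control spots and spots with an outlier flag (92 to 173 an array) were left out, replicate spots were averaged, and log2 intensity was taken minus the array's 75th percentile. A probe counted as above background when at least 50% of its spots were, and a gene is the mean of its probes. Genes above background on 1 array only were given a bound. The spot error pools replicate spots of like brightness. Symbols came from RefSeq accessions (27223 of 28672 probes with one matched, names only). The number of arrays limits the precision, and no spread between mice can be had. Members, lists and rules were chosen with earlier results of these data known. Named are the 15 largest rises and falls with a symbol, list members past 2-fold, the 5 largest bounds each way and 2 to 4 examples of each other list. Also named are all members of the lists built around the study's genes, to which Acta1, Ankrd1 and Foxo6 were added. Some items that this rule names are not reported here. Other genes were named after their values were seen. Alternatives were median scaling, quantile normalisation, normexp background (limma 3.58.1, R 4.3.3, offset 50), other filters on dim probes, the deposited log2 values, the brightest probe, subtraction of the median difference and flagged spots kept. Scripts (Python 3.11.15, numpy 2.4.6, pandas 2.3.3, scipy 1.17.1, matplotlib 3.10.9) were tested on simulated data.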

Additional observations from a re-analysis of the deposited data

Results flagged for a closer look

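Of the genes past 2-fold in opposite directions under the 2 diets, 15 higher and 11 lower under CR, 5 are members of the gene lists, and with 1 array a group the difference between the diets was not tested. Under CR, Angptl4 differed by -1.44 and Cdca3, a mitotic regulator, by -1.48, and under AL they were higher by 1.19 and 1.66. In the other direction, S100a8, S100a9 and the adipocyte complement protease Cfd were higher under CR by 1.85, 1.67 and 1.33 and differed under AL by -1.43, -1.02 and -2.02. Among measurements outside the mouse genes, the E1A control probe above background on all 4 arrays was higher on the old CR than on the middle-aged CR array by 1.79, and on the old AL than on the middle-aged AL array by 0.92. Other controls with most of their spots above background on every array differed less, from -0.99 to 0.41 under CR.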

How the results depend on the processing

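No paired analysis was possible because each group has 1 array, and for the same reason no replicate could be left out. The counts of genes past 2-fold depended on the treatment of dim probes. Under CR the 1075 genes higher at 22 months became 587 with normexp background, 2437 without the filter on dim probes and 455 at a signal of at least 100, and the 479 lower became 160, 1565 and 248, and 753 with median scaling. The median of all genes, -0.06, became -0.18 with median scaling. Under AL the 1199 higher became 479, 1819 and 702 in the same order of settings, and the 953 lower became 339, 2346 and 407. For the CR difference minus the AL difference, the 888 higher became 369, 2771 and 314, and the 556 lower became 247, 2432 and 284, and 874 with median scaling. The correlation between the diets, 0.557, became 0.386 without the filter. Of 98 named genes past 2-fold, 96 kept their direction under every alternative that gave a value, and 66 stayed past 2-fold. The exceptions were Isg15 (1.22), at -0.83 with the brightest probe and at a signal of at least 100, and Tmem30c (-2.84), at 0.094 without the filter. Foxo3, Cfd and S100a8 came to 0.47, 0.27 and 0.85 with normexp background. Of 39 list medians over 0.2 in size, 36 kept their direction. Lymphatic endothelial markers (-0.41) came to 0.75 and B, plasma and T cell markers (0.28) to -0.32 without the filter, and white adipocyte markers (0.47) to -1.29 at a signal of at least 100. The cause of these shifts was not tested. Probes near background limit what can be said of dim genes.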
